A study of Homo sapiens with 4 samples.

Results

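The genes described here are those of the phagocyte NADPH oxidase, chosen by name: CYBB, CYBA, NCF1, NCF4, RAC1, RAC2 and CYBC1, which are 7 of the 58037 genes in the deposited count table. All 7 were found by Ensembl identifier and all 7 passed the filter on low counts, as did 15718 genes in all. RNA was sequenced from OCI-AML3, an established human AML cell line, 3 days after transfection, the time given in the labels. The guide was either sgNPM1A (2 libraries), directed against the mutant allele of NPM1 (mtNPM1), or the control guide sgNeg (2 libraries). The study calls the control guide sgRNA Ctrl. According to the study, the line carries heterozygous NPM1 and DNMT3A mutations and a homozygous NRAS mutation, so that the sgNeg cells hold all of these. No selection of edited clones is stated for these cells, and each library is bulk RNA from a transfected culture.

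The phagocyte NADPH oxidase transfers electrons from NADPH across the membrane to oxygen and releases superoxide into the phagosome, the oxidative burst of neutrophils, monocytes and macrophages. Its core is a membrane flavocytochrome built from gp91phox (CYBB, also called NOX2), which carries the electrons, and p22phox (CYBA), its partner. CYBC1, also called EROS, is a chaperone that the flavocytochrome needs for its stability. On stimulation the cytosolic factors p47phox (NCF1), the organizer, and p40phox (NCF4), which binds phosphoinositides of the phagosome membrane, move to the flavocytochrome, and a GTP-bound Rac protein (RAC1, which most cells express, or RAC2, which is largely restricted to blood cells) joins them. Inherited loss of CYBB, CYBA, NCF1, NCF4 or CYBC1 causes chronic granulomatous disease. The 7 genes do not cover every subunit of the enzyme.

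The promoters of CYBB, NCF1 and CYBA are shown because CYBB was the only gene of the 7 to be called, because CYBA encodes its membrane partner, and because the CYBB and NCF1 sequences hold the same motif at nearly the same distance from the start. The sequences are those of RefSeq on GRCh38.p14, from 250 bases before to 50 bases after the annotated start and written on the strand of the gene. Capitals mark matches on either strand to GAGGAA (the core bound by the myeloid factor PU.1), the composite element of ETS and IRF factors (GGAA, any 2 bases, then GAAA) or CCAAT. The motif TATAAA, also searched on both strands, had no match in these windows. The CYBB window is chrX:37779809-37780108, plus strand; the NCF1 window is chr7:74773761-74774060, plus strand; the CYBA window is chr16:88651004-88651303, minus strand.
CYBB: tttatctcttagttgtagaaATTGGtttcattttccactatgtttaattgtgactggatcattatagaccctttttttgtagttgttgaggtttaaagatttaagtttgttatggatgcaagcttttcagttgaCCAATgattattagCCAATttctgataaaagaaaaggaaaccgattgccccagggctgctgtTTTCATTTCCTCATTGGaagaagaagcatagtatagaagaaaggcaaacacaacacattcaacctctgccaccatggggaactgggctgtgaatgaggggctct
NCF1: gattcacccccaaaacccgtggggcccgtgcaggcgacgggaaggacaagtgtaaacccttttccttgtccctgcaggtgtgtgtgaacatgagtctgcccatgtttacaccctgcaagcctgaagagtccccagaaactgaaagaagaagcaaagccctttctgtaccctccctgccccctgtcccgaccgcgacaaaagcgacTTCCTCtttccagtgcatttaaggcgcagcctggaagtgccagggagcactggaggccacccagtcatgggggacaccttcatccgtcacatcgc
CYBA: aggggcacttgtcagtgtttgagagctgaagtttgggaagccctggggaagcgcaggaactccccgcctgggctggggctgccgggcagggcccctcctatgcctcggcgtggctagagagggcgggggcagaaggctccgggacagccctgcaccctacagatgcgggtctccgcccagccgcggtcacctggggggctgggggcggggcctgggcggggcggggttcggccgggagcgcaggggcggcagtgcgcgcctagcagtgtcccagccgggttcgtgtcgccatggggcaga

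GAGGAA lay on the opposite strand of CYBB between 48 and 43 bases before the start, and on the opposite strand of NCF1 between 45 and 40 bases before it. In CYBB it overlapped a match to the ETS-IRF composite element from 54 to 45 bases before the start, and CCAAT followed directly from 42 to 38 bases before it. Of the 35116 promoters in the table, 27.9% held GAGGAA, 2.82% held the ETS-IRF composite element, 34.6% held CCAAT and 11.5% held TATAAA. The table has promoters for 4 of the 7 genes, the other being that of CYBC1, which held the ETS-IRF composite element from 30 to 39 bases after the start; that start, at position 82449726 of chromosome 17, lies 1026 bases inside the annotated gene. The table has none for NCF4, RAC1 and RAC2. These matches are a description of the reference sequence, and no binding was measured in these libraries. SPI1, the gene of PU.1, went from 473.4 ± 30.3 CPM with sgNeg to 659.5 ± 22.8 CPM with sgNPM1A (SD, n = 2 libraries each; log2 fold change 0.48, edgeR adjusted p = 0.000552).

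The counts summed to between 25069484 and 28276391 per library, in which 3 counts, the smallest count told from 0 here, stand for 0.106 to 0.120 CPM (counts scaled to library size); such floors cover counting error only. The 2 libraries of a guide are called biological replicates in the study, and nothing more is stated about how they were grown. NPM1, the targeted gene, had 33522 and 35881 counts with sgNeg and 33154 and 31428 with sgNPM1A, a log2 fold change of -0.22 (edgeR adjusted p = 0.0360), and the counts do not separate its alleles. As markers of the line, CD33, SPI1, CEBPA and CD38 had 524 counts or more in every library, MPO had 71 to 292 counts and KIT had at most 2 counts; 3 of these 6 were called higher. Of the 4 T cell markers 3 had at most 3 counts in every library, as had all 3 erythroid, 2 of the 3 megakaryocyte and 1 of the 3 B cell markers. CD3D, CD3E, MS4A1 and HBB had 0 counts. The 4 monocyte markers (CD14, FCGR1A, LYZ and CSF1R) summed to 283.1 to 328.8 CPM with sgNeg and 2771 to 3507 CPM with sgNPM1A, with 3 of the 4 called higher. Most of this sum was LYZ, the lysozyme gene (242.9 ± 39.3 to 3005 ± 512.3 CPM; SD, n = 2 libraries each); the other 3 summed to 58.1 to 68.0 CPM with sgNeg and 128.5 to 139.6 CPM with sgNPM1A, and CD14 was not called (log2 fold change 0.34, edgeR adjusted p = 0.0557). The 5 neutrophil granule genes (LTF, LCN2, CAMP, MMP8 and MMP9) summed to 112.9 to 117.4 CPM with sgNeg and 48.4 to 62.1 CPM with sgNPM1A. Nearly all of this sum was MMP9 (112.7 ± 3.03 to 54.3 ± 9.55 CPM, SD, n = 2 libraries each), so it describes 1 gene rather than the group. LTF, LCN2 and CAMP had at most 5 counts in any library and were not tested. MMP9 and MMP8 (2.34 ± 0.0860 to 0.809 ± 0.129 CPM) were called lower. Among all tested genes 10.5% were called higher and 10.3% lower. In bulk RNA, a change in the number of cells of a type and a change in RNA per cell cannot be told apart.

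Of the 7 oxidase genes, CYBB alone was called, and it fell. The other 6 were not called, so that 0 genes were called higher, with edgeR as with DESeq2. A call required both an adjusted p (Benjamini-Hochberg, over all 15718 tested genes) under 0.05 and a fold change of 1.25 or more, the study's threshold. By the same rule 1653 genes were called higher and 1619 lower, 20.8% of those tested (10.5% higher and 10.3% lower). Thus 1 of 7, or 14.3%, is near this background. The study itself reports fewer genes in each direction at 3 days, and why the numbers differ was not tested. Among the 1326 genes with a mean level within the range of the 7, which is 136.4 to 600.0 CPM, 15.6% were called, 9.35% higher and 6.26% lower. The median log2 fold change of the 7 genes was 0.04, beside 0.00 over all tested genes. On adjusted p alone 3 of the 7 passed, CYBB, NCF4 and CYBC1 (the same 3 as at an unadjusted p under 0.05), beside 26% of all tested genes. The libraries of both guides did not overlap in 5 of the 7 genes (3 higher and 2 lower with sgNPM1A), beside 63.1% of all tested genes (31.4% higher and 31.7% lower).

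**Figure D1:**
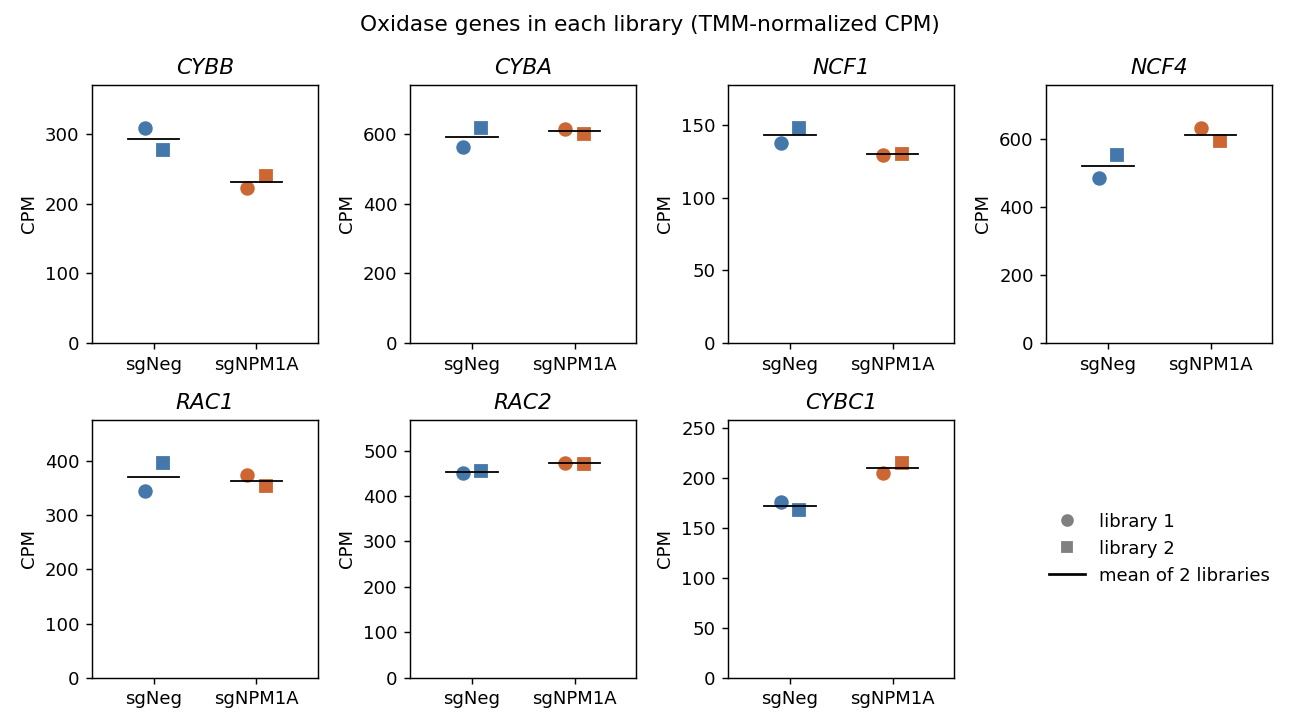
TMM-normalized CPM (vertical axis, from 0, own scale for each gene) of the 7 oxidase genes in each of the 4 libraries, with the mean of the 2 libraries of a guide as a line. For CYBB both sgNPM1A libraries (222.9 and 240.3 CPM) lie below both sgNeg libraries (309.3 and 277.9 CPM), while for CYBA and RAC1 the libraries of both guides overlap.

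CYBB lies on chromosome X of GRCh38 from 37780059 to 37813461, plus strand (ENSG00000165168.7). It had 7863 and 7198 counts with sgNeg and 6214 and 6673 counts with sgNPM1A, or 309.3 and 277.9 CPM against 222.9 and 240.3 CPM. Both sgNPM1A libraries were below both sgNeg libraries. The mean went from 293.6 ± 22.2 to 231.6 ± 12.3 CPM (SD, n = 2 libraries each), and the log2 fold change was -0.34 (standard error 0.07, 95% interval -0.50 to -0.18, edgeR adjusted p = 0.00581), which is 0.789 of the sgNeg level. Its absolute log2 fold change stood at the 66.4th percentile of all tested genes. None of its 50-base transcript words occurs in another gene. The call depended on single libraries: without the first sgNeg library the log2 fold change was -0.26 (adjusted p = 0.0229), short of the fold threshold, and without the first sgNPM1A library it was -0.29 with an adjusted p of 0.110.

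CYBA, whose protein and that of CYBB stabilize each other in phagocytes, lies on chromosome 16 from 88643289 to 88651053, minus strand (ENSG00000051523.10). It had 14331 and 16017 counts with sgNeg and 17168 and 16714 counts with sgNPM1A, or 563.8 and 618.4 CPM against 615.9 and 602.0 CPM. The sgNPM1A libraries lay within the range of the sgNeg libraries. The log2 fold change was 0.04 (95% interval -0.11 to 0.20, edgeR adjusted p = 0.703). The ratio of CYBB to CYBA counts within a library, which no scaling between libraries can alter, was 0.549 and 0.449 with sgNeg and 0.362 and 0.399 with sgNPM1A. This ratio was lower in both sgNPM1A libraries, and for 2 libraries against 2 the smallest two-sided p of an exact permutation test is 0.333.

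CYBC1, the chaperone of the flavocytochrome, lies on chromosome 17 from 82442586 to 82450752, minus strand (ENSG00000178927.17). It had 4475 and 4346 counts with sgNeg and 5699 and 5975 counts with sgNPM1A, or 176.0 and 167.8 CPM against 204.5 and 215.2 CPM. Both sgNPM1A libraries were above both sgNeg libraries, in the opposite direction to CYBB. The mean was 171.9 ± 5.83 CPM with sgNeg and 209.8 ± 7.59 CPM with sgNPM1A (SD, n = 2 libraries each), with 0.29 as the log2 fold change (standard error 0.07, 95% interval 0.14 to 0.43, edgeR adjusted p = 0.00821), short of the fold threshold at 1.22-fold. Without the first sgNPM1A library it reached the threshold (log2 fold change 0.33, adjusted p = 0.0499), and without the second it did not pass on adjusted p either (log2 fold change 0.25, adjusted p = 0.172). CYBC1 overlaps its neighbour HEXD by 60 bases, and 7.46% of its 50-base words occur in other genes; how many of its counts come from shared stretches was not measured. HEXD itself had 0.12 in log2 fold change (adjusted p = 0.571).

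**Figure D2:**
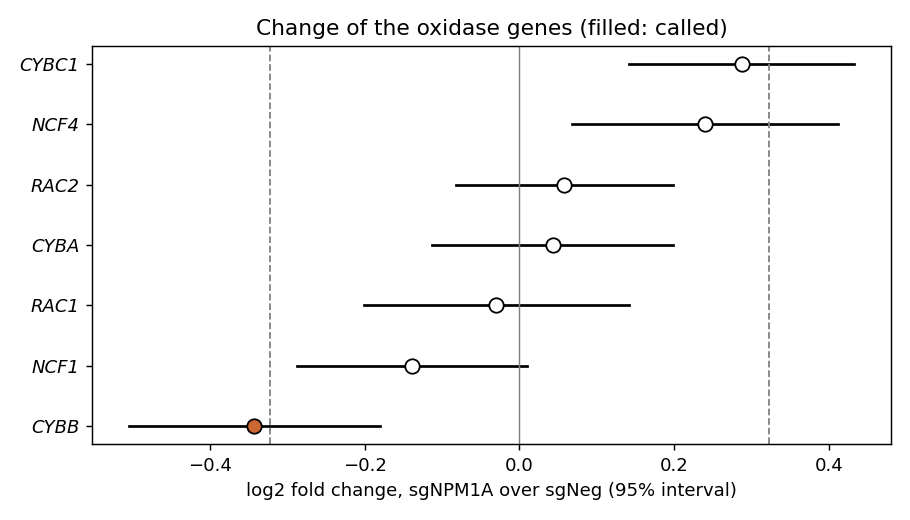
Log2 fold change of each oxidase gene, sgNPM1A over sgNeg, with its 95% interval from the edgeR fit; dashed lines mark a fold change of 1.25 in either direction and the filled point marks the called gene. CYBB lies just outside the line at -0.34, CYBC1 (0.29) and NCF4 (0.24) lie inside it with intervals above 0, and the intervals of the other 4 genes include 0.

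NCF4 lies on chromosome 22 from 36861006 to 36878015 (ENSG00000100365.14). It had 12351 and 14345 counts with sgNeg and 17659 and 16495 counts with sgNPM1A, or 485.9 and 553.9 CPM against 633.5 and 594.1 CPM. Both sgNPM1A libraries were higher. The mean was 519.9 ± 48.1 CPM with sgNeg and 613.8 ± 27.9 CPM with sgNPM1A (SD, n = 2 libraries each), with 0.24 as the log2 fold change (standard error 0.08, 95% interval 0.07 to 0.41, edgeR adjusted p = 0.0435), short of the fold threshold. This adjusted p was near the threshold: it was 0.0842 with library size only, 0.0699 with upper-quartile scaling, 0.0732 with limma-trend and 0.0933 with the labels' replicate numbers as a block. Without the second sgNeg library NCF4 was called (log2 fold change 0.34, adjusted p = 0.00930). Leaving out the first sgNeg, the first sgNPM1A or the second sgNPM1A library instead gave adjusted p-values of 0.157, 0.338 and 0.115. Its ratio to NCF1 counts was 3.53 and 3.74 with sgNeg and 4.89 and 4.56 with sgNPM1A.

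NCF1 lies on chromosome 7 from 74774011 to 74789315 (ENSG00000158517.13), and its counts cannot be taken at face value, because NCF1B and NCF1C are near-identical pseudogenes on the same chromosome. Of the 50-base words of NCF1 transcripts, 37.6% also occur in NCF1B or NCF1C, and of those of NCF1C 72.2% occur in NCF1 or NCF1B. The stretch below, from GENCODE transcripts NCF1-202, NCF1B-203 and NCF1C-201, shows how the copies differ. Capitals mark the run of GT before the shared acatgt, which has 2 repeats in NCF1 and 1 in each pseudogene.
NCF1: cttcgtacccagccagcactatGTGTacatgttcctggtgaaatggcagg
NCF1B: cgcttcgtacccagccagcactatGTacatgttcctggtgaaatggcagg
NCF1C: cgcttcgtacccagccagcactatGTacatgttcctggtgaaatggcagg

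NCF1 had 3501 and 3837 counts with sgNeg and 3611 and 3614 counts with sgNPM1A, or 137.7 and 148.2 CPM against 129.6 and 130.2 CPM. Both sgNPM1A libraries were lower, and the log2 fold change of -0.14 did not pass the test (95% interval -0.29 to 0.01, edgeR adjusted p = 0.161). NCF1B had 1408 and 1531 counts with sgNeg and 1534 and 1390 with sgNPM1A, a log2 fold change of -0.12 (adjusted p = 0.299). NCF1C had 2755 and 3052 counts with sgNeg and 2792 and 2643 with sgNPM1A, a log2 fold change of -0.21 (adjusted p = 0.0520). NCF1 took between 45.5% and 47.3% of the reads of the 3 genes in the 4 libraries. With the 3 genes summed, a step added after the data were seen, the log2 fold change was -0.16 (standard error 0.07, edgeR adjusted p = 0.102).

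RAC2, the Rac protein of blood cells, lies on chromosome 22 from 37225270 to 37244269 (ENSG00000128340.14). It had 11483 and 11797 counts with sgNeg and 13195 and 13085 counts with sgNPM1A, or 451.7 and 455.5 CPM against 473.4 and 471.3 CPM. The sgNPM1A libraries were higher by a small margin, and the log2 fold change was 0.06 (95% interval -0.08 to 0.20, edgeR adjusted p = 0.553). RAC1, on chromosome 7 from 6374527 to 6403967 (ENSG00000136238.17), had 8787 and 10290 counts with sgNeg and 10426 and 9825 counts with sgNPM1A, or 345.7 and 397.3 CPM against 374.0 and 353.8 CPM. Its libraries overlapped, with a log2 fold change of -0.03 (95% interval -0.20 to 0.14, edgeR adjusted p = 0.819), and 6.64% of its 50-base words occur in other genes, among them its pseudogenes RAC1P2 and RAC1P5. RAC2 took from 49.3% to 53.2% of the counts of RAC1, RAC2 and RAC3 in the 4 libraries, with overlap between the guides. For CYBA, NCF1, RAC1 and RAC2 the intervals exclude a fold change of 1.25 in either direction.

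Per kilobase of exon, the scale on which levels of different genes may be compared, the sgNeg levels were 232.2 ± 21.5 CPM per kilobase for NCF4, 173.4 ± 1.02 for RAC2, 142.1 ± 9.29 for CYBA, 61.1 ± 4.62 for CYBB, 44.9 ± 4.41 for RAC1, 41.9 ± 2.16 for NCF1 and 21.2 ± 0.718 for CYBC1 (SD, n = 2 libraries). In this order the libraries of neighbours overlapped only for RAC1 and NCF1. With sgNPM1A the order per kilobase of exon was the same, from 274.1 ± 12.5 for NCF4 to 25.9 ± 0.935 for CYBC1, and the libraries of no neighbours overlapped. The values and the order depend on the length used: with the longest transcript, NCF4, RAC2 and CYBA had 316.4 ± 29.3, 308.2 ± 1.81 and 300.2 ± 19.6 CPM per kilobase with sgNeg and overlapped. On that length CYBB and RAC1 both had 68.7 CPM per kilobase with sgNeg. With sgNPM1A, CYBB (54.2 ± 2.88) then stood below RAC1 (67.3 ± 2.64) and overlapped with NCF1 (55.2 ± 0.183). The 7 genes were all among the more abundant of the tested genes, between the 90.4th percentile (NCF1) and the 98.8th percentile (CYBA) of mean CPM.

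**Figure D3:**
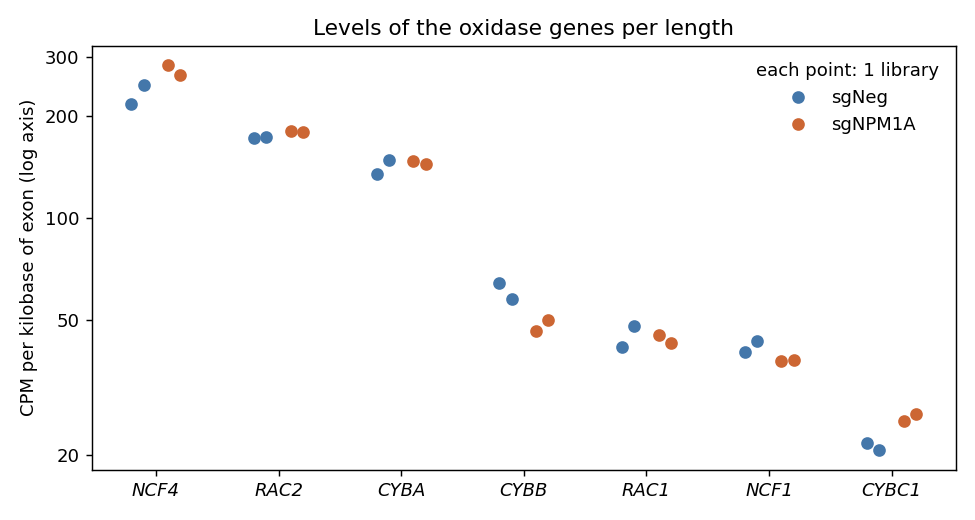
CPM per kilobase of exon (log axis) of the 7 oxidase genes in order of their sgNeg level; each point is 1 library. NCF4, RAC2 and CYBA lie above 130 CPM per kilobase in all libraries and CYBB, RAC1, NCF1 and CYBC1 below 70.

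NCF4 and RAC2 lie on the same arm of chromosome 22, 347254 bases apart, with 6 other tested protein-coding genes lying wholly within the span. Of these 8 genes only TST, a mitochondrial sulfurtransferase, was called (log2 fold change 0.35, adjusted p = 0.00497), beside 20.8% of all tested genes. The nearest tested protein-coding gene on each side was looked up for each of the 7. DYNLT3, which lies 25374 bases from CYBB and encodes a dynein light chain, fell by 0.39 in log2 units (edgeR adjusted p = 0.0302). XK, on the other side of CYBB, had 0.11 in log2 fold change (adjusted p = 0.856). MVD, which lies 886 bases from CYBA and encodes an enzyme of cholesterol synthesis, rose by 0.73 (adjusted p = 0.000164). ZC3H18, on the other side of CYBA, had -0.27 (adjusted p = 0.0171), short of the fold threshold. FAM220A beside RAC1 rose by 0.37 (adjusted p = 0.0111), and CYTH4 beside RAC2 fell by 0.53 (adjusted p = 0.00954), while RAC1 and RAC2 were not called. DYNLT3, MVD, FAM220A and CYTH4 were the only neighbours called, beside 20.8% of all tested genes.

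The genes whose log2 CPM, centred on their own mean, lay nearest to that of CYBB over the 4 libraries were CHD1, SLC7A2, ESPL1 and ZFTA, among 10180 tested genes whose mean was 5 CPM or more. The distances were 0.016, 0.019, 0.020 and 0.020 on the log2 scale, and their log2 fold changes lay between -0.36 (ZFTA) and -0.33 (SLC7A2). With 4 libraries such likeness is a description only.

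The other genes of the pathway were followed in lists chosen by name. Of 12 other subunits of the NOX family, with NCF1B and NCF1C counted among them, 5 were tested. NOX3, NOX4, DUOXA1 and DUOXA2 had 0 counts in every library, which allows up to 0.106 to 0.120 CPM. NOX5, DUOX2 and NOXO1 had at most 3 counts in any library. NOX1 had 6 to 14 counts and DUOX1 8 to 15 counts per library, with log2 fold changes of -0.12 (adjusted p = 0.897) and -0.53 (adjusted p = 0.412). CYBB, which is not on this list, had 6214 counts or more in each library. NOXA1, the activator subunit used by NOX1, was called higher at a very low level, from 8 and 21 counts to 44 and 40 counts (log2 fold change 1.41, edgeR adjusted p = 0.0166), and was not called with DESeq2.

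Of the 21 GTPases, exchange factors, kinases and other regulators of the oxidase, 20 were tested. Of these, 7 were called higher and 2 lower, beside 10.5% higher and 10.3% lower among all tested genes. The median log2 fold change of the 20 was 0.06. PRKCZ, 1 of the 7, passed the filter on low counts only through its sgNPM1A libraries (7 and 8 counts with sgNeg, 36 and 48 with sgNPM1A). It could therefore only be called higher. With at least 10 counts in every library, 6 genes of the list were called higher. ARHGDIB, the GDP dissociation inhibitor of blood cells that holds Rac proteins in the cytosol, rose from 875.8 ± 58.5 to 1780 ± 39.8 CPM (SD, n = 2 libraries each). The log2 fold change was 1.02 (edgeR adjusted p = 2.35e-06). PRKCA, a protein kinase C, rose by 0.87 in log2 units (adjusted p = 5.03e-05) and RHOG, a GTPase related to Rac, by 0.48 (adjusted p = 0.000209). PLA2G4A, the cytosolic phospholipase that releases arachidonic acid, fell from 34.5 ± 1.06 to 20.8 ± 0.565 CPM (log2 fold change -0.73, adjusted p = 0.000101), and VAV3, an exchange factor for Rac, fell from 17.8 ± 0.372 to 12.0 ± 0.475 CPM (log2 fold change -0.56, adjusted p = 0.00233).

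Of 10 receptors that trigger the burst, all tested, 5 were called higher and 1 lower (10.5% and 10.3% of all tested genes), with a median log2 fold change of 0.70. The formyl peptide receptors were at a low level: FPR1 went from 5 and 6 counts to 64 and 83 counts (log2 fold change 3.60, edgeR adjusted p = 2.21e-05). FPR2 went from 3 and 3 counts to 71 and 84 counts, a ratio of 23.8 with a 95% counting interval of 10.7 to 65.9 (edgeR adjusted p = 6.42e-06). Both formyl peptide receptors passed the filter on low counts only through their sgNPM1A libraries, so they could only be called higher. With at least 10 counts in every library, 3 receptors were called higher. FCGR1A, the high-affinity receptor for IgG, rose from 14.6 ± 2.29 to 47.7 ± 0.893 CPM (SD, n = 2; log2 fold change 1.71, adjusted p = 8.68e-07). FCGR2A, a low-affinity receptor for IgG, fell from 85.3 ± 0.934 to 48.2 ± 1.75 CPM (log2 fold change -0.82, adjusted p = 1.15e-05). FCGR1A is also on the list of monocyte markers, whose summed level, mostly LYZ, was higher with sgNPM1A as given above; the part of this shift in the values of the oxidase genes was not tested.

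Of 5 genes for NADPH supply and the proton channel HVCN1, only PGD was called, beside 20.8% of all tested genes. HVCN1 balances the charge moved by the oxidase, and PGD is a dehydrogenase of the pentose phosphate pathway. PGD rose from 111.6 ± 5.66 to 182.2 ± 5.71 CPM (SD, n = 2; log2 fold change 0.71, edgeR adjusted p = 2.30e-05). Of 19 genes for handling superoxide and peroxide, 18 were matched by identifier and 17 tested, with 2 called higher and 2 lower. Their median log2 fold change was 0.15, and these 4 of 17 are near the 20.8% called among all tested genes. SOD2 was the gene not matched by identifier, so its level is not described here. MPO, which makes hypochlorous acid from hydrogen peroxide, went from 3.02 ± 0.318 to 10.3 ± 0.257 CPM (log2 fold change 1.77, adjusted p = 7.52e-06), and PRDX2, a peroxiredoxin, from 115.2 ± 5.12 to 158.0 ± 4.83 CPM (log2 fold change 0.46, adjusted p = 0.000529). HMOX1, the inducible heme oxygenase, fell by 2.13 in log2 units from 33.4 ± 3.50 to 7.62 ± 1.04 CPM (adjusted p = 4.75e-07). GPX4, which reduces lipid peroxides, fell by 0.37 (adjusted p = 0.00709), a call that was lost when either the second sgNeg or the second sgNPM1A library was left out.

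**Figure D4:**
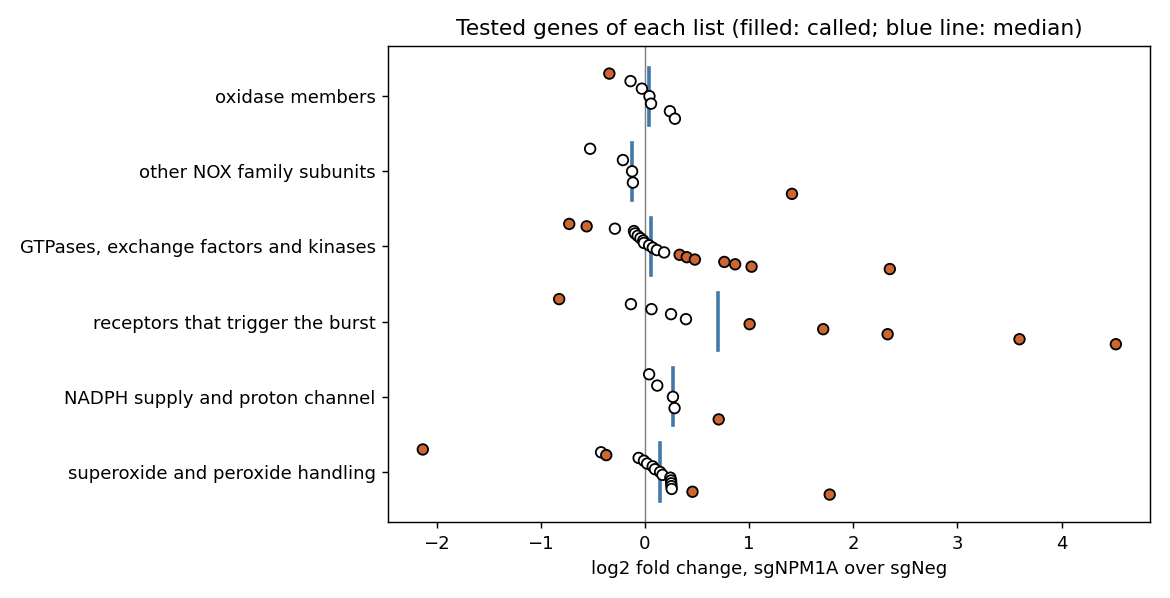
Log2 fold change, sgNPM1A over sgNeg, of every tested gene in the oxidase group and in 5 other lists of the pathway, each point 1 gene, filled where called, with the median of the list as a line. The oxidase genes lie between -0.34 and 0.29, and the receptors between -0.82 and 4.52.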

How the data were processed

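RNA-Seq was performed on OCI-AML3 cells transfected with sgNeg or sgNPM1A, and samples were grouped by their titles. Per the labels and the study's methods, the authors mapped read pairs to hg38 with STAR and Samtools and deposited raw counts per Ensembl gene; the counting program, annotation release and strand setting are not given in the sources used here, so overlapping genes and near-identical copies may share reads. Libraries were made with ERCC spike-ins, and the table holds 0 rows named ERCC.

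Symbols were matched by Ensembl identifier for 55603 of 58037 rows. Positions and promoters are RefSeq's on GRCh38.p14. Exon lengths and 50-base words come from GENCODE transcripts lifted to GRCh37, whose coordinates were not used; the authors' annotation may differ.

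edgeR 4.0.16 in R 4.3.3 was used with filterByExpr (minimum count 10), TMM factors between 0.985 and 1.02, robust dispersions and the two-sided quasi-likelihood F test; intervals use its moderated degrees of freedom. Alternatives were DESeq2 1.42.0, limma-trend 3.58.1 on quantile-normalized log2 CPM (prior count 2), other scalings, filters and fold thresholds, the replicate block, and leaving out each library. The scripts were tested on simulated counts, with changed genes drawn from those with a mean above 200 counts; a first draw from genes above 20 counts gave lower recovery, short of the share required for DESeq2 and limma-trend, so low-count genes may be missed. P-values rest on the spread between 2 libraries a guide, moderated by the spread of the other tested genes.

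The genes and lists were chosen with earlier results of these data known. Outside the lists, named genes were the 3 called genes of smallest adjusted p per list and direction, the nearest tested protein-coding neighbours and the 4 genes nearest to CYBB. SPI1, TST, PRKCZ, and the untested or uncalled NOX family genes were named after their values were seen.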

Additional observations from a re-analysis of the deposited data

How the results depend on the processing

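With 2 libraries a guide, the calls rest on variance shared between genes, and depth limits the genes with few counts, such as NOXA1 and FPR1. CYBB was called lower with every alternative scaling, filter and test and with the replicate block, and was not called at a fold threshold of 2, which left 0 members lower, nor without the first library of either guide. Without a fold threshold 2 members were higher.

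When single libraries were left out one after the other (the lone library of a guide assumed to vary like the others), between 0 and 1 members were called higher and between 0 and 1 lower, and the log2 fold change lay between -0.42 and -0.26 for CYBB, -0.023 and 0.11 for CYBA, -0.19 and -0.08 for NCF1, 0.15 and 0.34 for NCF4, -0.13 and 0.075 for RAC1, 0.05 and 0.07 for RAC2, and 0.25 and 0.33 for CYBC1, with a median over the members between -0.023 and 0.075. CYBA turned negative without the first sgNeg library, and RAC1 positive without the second library of either guide. In the lists, 0 to 1 NOX family subunits, 6 to 7 GTPases, kinases and other regulators, 5 receptors and 2 to 3 peroxide genes were then called higher. For peroxide genes, 1 to 2 were called lower.

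A fold threshold of 2 left 498 tested genes higher and 502 lower. It left 2 GTPases, kinases and other regulators higher and 0 lower, 0 receptors lower and 0 NADPH supply genes higher. It also left 1 peroxide gene higher and 1 lower. No fold threshold gave 2 NADPH supply genes and 6 peroxide genes higher. At least 10 counts in every library left 3 receptors, 6 GTPases, kinases and other regulators, and 0 NOX family subunits higher. DESeq2 gave 0 NOX family subunits. With the longest transcript as length, the sgNeg levels were 68.7 (CYBB), 300.2 (CYBA), 60.7 (NCF1), 316.4 (NCF4), 68.7 (RAC1), 308.2 (RAC2) and 39.7 (CYBC1) CPM per kilobase. In the 150 bases before the start, 14.8% of promoters held GAGGAA, 1.39% the ETS-IRF composite element, 23.5% CCAAT and 6.71% TATAAA.

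Same-numbered libraries deviated from their group means with a correlation of -0.130 across tested genes and -0.523 across the 8856 genes with a mean above 10 CPM, which include the 7 members, so same-numbered libraries tended to deviate in opposite directions. The replicate block gave CYBB a log2 fold change of -0.34 (adjusted p = 0.00787), changed no call of a member and gave 1637 genes higher and 1604 lower in all. A crossed block, added after the data were seen, gave 0 members higher and 1 lower, with 4 members passing on adjusted p alone in place of 3, and 1955 and 1918 genes in all.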
